A study of Homo sapiens with 4 samples.

Results

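The genes described are hepcidin (HAMP) and 9 genes of iron handling around it: TFRC, TFR2, SLC40A1, SLC11A2, FTH1, FTL, HFE, BMP6 and ID1. They were taken by name, with every probe set whose platform annotation names 1 of them alone. Of these 10 genes, 9 had such a probe set, 37 probe sets in all, out of 19775 genes and 41091 named probe sets; FTH1 is not analysed here. RNA came from HepG2, an established human hepatoma line, read on 4 Affymetrix HG-U133 Plus 2.0 arrays. The 2 control arrays carried RNA of cells transfected with siRNA against GL3. Of the 2 knockdown arrays, 1 carried RNA of cells given siRNA-1 against the histone demethylase LSD1 and the other RNA of cells given siRNA-2 against it. All cells were grown in 25 mM glucose with 10% serum, transfected at about 50% confluence and collected after 4 days. The study's title places the comparison in the metabolism of hepatic cancer. Each siRNA stands on 1 array, and whether arrays of 1 group stem from different cultures is not stated, so p-values measure only the spread between these arrays.

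Hepcidin is a small peptide hormone that the liver secretes. It binds the iron exporter ferroportin (SLC40A1) on other cells and causes its degradation, which keeps iron inside them and out of the plasma. In hepatocytes its gene is switched on by BMP ligands through SMAD proteins, with HFE and TFR2 as sensors of iron-loaded transferrin, and in inflammation by IL6 through STAT3. Iron inside the cell is also controlled after transcription: iron regulatory proteins bind a hairpin, the iron-responsive element, which stabilises the TFRC mRNA and blocks translation of ferritin.

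The promoter of HAMP is shown because the gene's known inputs meet there. Windows of 250 bases before the RefSeq start (GRCh38.p14) were found for 8 of the 10 genes, 11 windows in all, of which 4 belong to SLC11A2. They were searched on both strands for GGCGCC, the core of the BMP response, for TTCNNNGAA, a STAT site, for ACGTG, the core bound by hypoxia-inducible factors, and for TGACNNNGC, a form of the NRF2 site. Capitals mark every match. The sequence of HAMP is the plus strand of chr19:35282278-35282527, and that of TFRC, the gene of the classical transferrin receptor, is the minus strand of chr3:196082091-196082340.
HAMP: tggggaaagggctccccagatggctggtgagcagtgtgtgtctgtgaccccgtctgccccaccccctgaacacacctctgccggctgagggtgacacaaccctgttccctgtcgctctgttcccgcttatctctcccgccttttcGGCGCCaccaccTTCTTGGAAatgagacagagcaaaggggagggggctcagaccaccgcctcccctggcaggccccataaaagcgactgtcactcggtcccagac
TFRC: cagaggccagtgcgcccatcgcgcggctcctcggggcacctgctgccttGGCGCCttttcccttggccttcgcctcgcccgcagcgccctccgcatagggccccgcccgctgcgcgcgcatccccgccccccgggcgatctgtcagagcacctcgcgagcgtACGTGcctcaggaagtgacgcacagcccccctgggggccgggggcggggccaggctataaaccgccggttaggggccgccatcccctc
The window of HAMP held GGCGCC at -105 to -100 and TTCTTGGAA at -93 to -85, with positions counted back from the start. That of TFRC held GGCGCC at -201 to -196 and ACGTG at -88 to -84. HFE and FTL held ACGTG only, and the other windows held none of the 4. Over all 35116 RefSeq windows of this length, GGCGCC was found in 16.4%, TTCNNNGAA in 6.57%, ACGTG in 18.5% and TGACNNNGC in 10.9%. These matches describe the sequence and are not evidence of binding.

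Iron-responsive elements were searched only in the 50 bases after the start, so elements further into a transcript could not be found. In those 50 bases, only FTL among these windows held the loop of such an element. The loop was searched on the sense strand as a C, 5 further bases and CAGTGN, and was present in 1.67% of all windows. It is shown because FTL, the ferritin light chain, is regulated through it mainly in translation, which an mRNA array does not read. The site lies in the transcribed part of the gene before the coding sequence, at chr19:48965335-48965358 on the plus strand, with the loop in capitals.
FTL: ctcttgcttcaaCAGTGTttggac

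The deposited values, taken as log2, were centred by the authors on the median of the 4 arrays in every probe set. Levels are therefore gone and only differences between arrays can be read. A rough class of brightness (8 or above, 4 to 8, or below 4 before centring) was recovered from the numeric step of the values. A probe set below 4 is called dim. The class can be too bright, since the values of a dimmer probe set can also fall on the coarser step. KDM1A, which encodes LSD1, read 1.23 and 1.17 on the controls, -1.55 for siRNA-1 and -1.17 for siRNA-2. The siRNA-2 array stood apart: the SD of its values over all probe sets was 0.384, against 0.197 with siRNA-1 and 0.154 to 0.164 on the controls. Hybridization spike-ins, added in equal amounts to every array, were higher on both knockdown arrays by 1.36 (18 probe sets, range 0.80 to 1.53). The 5' minus 3' value was lower there for ACTB (a difference of -0.61) and, by less, for GAPDH (-0.18). These shifts follow the split between control and knockdown arrays, and their part in the results below was not tested.

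In the comparison of both knockdown arrays with both controls, no iron gene passed (limma, 0 of 9 at an adjusted p under 0.05; 1 of all 19775 genes passed, 0.00506%). At an unadjusted p under 0.05 there were 2 of the 9, TFR2 and SLC11A2, where 14.7% of all genes did so. Both knockdown arrays lay above both controls for TFR2, SLC40A1, SLC11A2 and HFE, 4 of 9, and below both for TFRC and ID1, 2 of 9. Over all genes 23.7% lay above and 25.4% below, and the median difference of the 9 genes was -0.05, against 0.00 over all genes. With each siRNA tested alone, 0 of 9 passed with siRNA-1 (0.0% of all genes). At an unadjusted p under 0.05 there were 3 of 9 with siRNA-1 (limma), near the 26.9% of all genes. With siRNA-2, 3 of 9 were called higher and 2 lower, where 13.6% of all genes were called higher and 10.3% lower. Between the siRNAs, siRNA-2 was called higher for 1 of 9 and lower for 2 of 9, where the shares over all genes were 4.09% and 2.87%. In these last tests the spread comes from the 2 controls, and a lone knockdown array is taken to vary as they do. Quantile normalization of the values ended all of these single-siRNA calls, among the iron genes and over all genes. Applied to centred values, it forces the same spread on every array. With it the siRNA-2 differences went from -1.05 to -0.61 for HAMP, -0.50 to -0.35 for TFRC and 1.62 to 0.94 for SLC40A1. They went from 1.94 to 1.72 for TFR2 and from 0.53 to 0.49 for SLC11A2. Why the calls were lost was not tested. Leaving out the siRNA-1 array turned the 0 calls on knockdown into 5, the siRNA-2 comparison again.

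**Figure D1:**
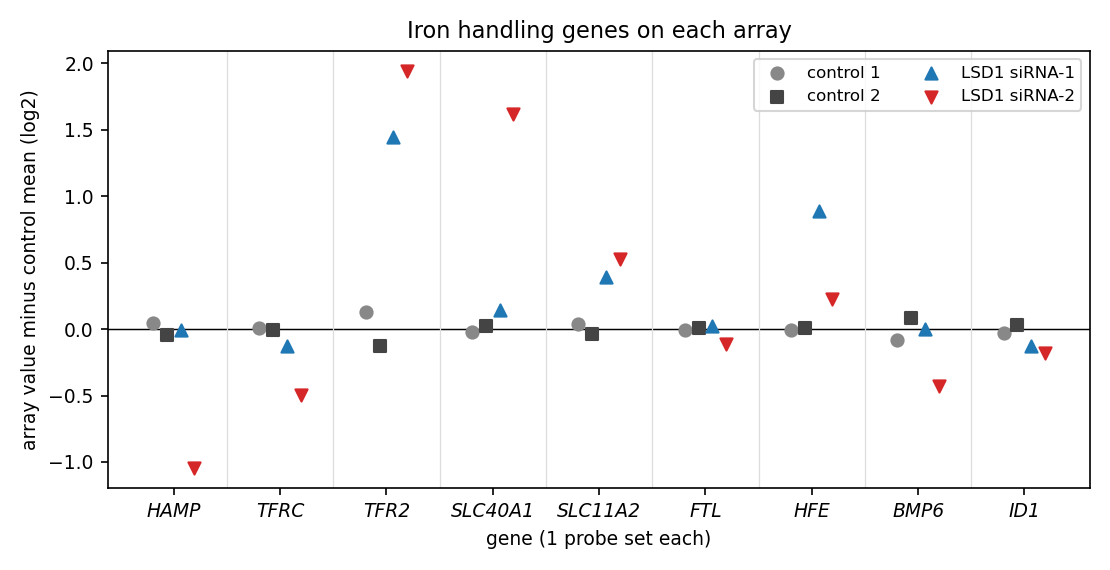
Value on each array minus the mean of the 2 controls (log2) for the 9 measured genes, 1 probe set each; points are single arrays. TFR2 stands 1.44 (siRNA-1) and 1.94 (siRNA-2) above the control mean, while HAMP is at 0.00 with siRNA-1 and -1.05 with siRNA-2.

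HAMP itself was lower with siRNA-2, while its value with siRNA-1 stayed within the controls. Its single probe set, in the brightest class, read 0.07 and -0.02 on the controls, 0.02 for siRNA-1 and -1.02 for siRNA-2. The siRNA-1 array thus lay between the controls and only the siRNA-2 array was low. The difference with siRNA-2 was -1.05 ± 0.08 (SE, 1 array against 2), a 2.07-fold lower value (limma adjusted p = 0.0184), or -0.61 after quantile normalization (0.106). With siRNA-1 it was 0.00 ± 0.08 (limma adjusted p = 0.977). The difference between the siRNAs was -1.05 ± 0.09 (limma adjusted p = 0.0429); it missed the threshold when every probe set was tested by itself (0.0544) and after quantile normalization (-0.61, 0.26). With both knockdown arrays as replicates the difference was -0.53 ± 0.37 (limma adjusted p = 0.552).

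Other genes were then ranked by their likeness to HAMP. By Euclidean distance over the 4 values, among 14433 other genes that were not dim, the nearest were NOLC1 (distance 0.0358), NUP35 (0.0703) and TMEM263 (0.0749). NOLC1 encodes a nucleolar phosphoprotein and NUP35 a nuclear pore protein.

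SLC40A1, which encodes ferroportin, the only known cellular iron exporter, was higher with siRNA-2. Its brighter probe set read -0.10 and -0.06 on the controls, 0.06 with siRNA-1 and 1.54 with siRNA-2. Both knockdown values were above both controls, but by a narrow margin with siRNA-1. With siRNA-2 the difference was 1.62 ± 0.07 (SE, 1 array against 2), a 3.08-fold higher value (limma adjusted p = 0.0156), or 0.94 after quantile normalization (0.0783). With siRNA-1 it was 0.14 ± 0.07 (limma adjusted p = 0.306), and the siRNAs differed by 1.48 ± 0.08 (limma adjusted p = 0.0425). That difference between the siRNAs also missed the threshold with every probe set tested by itself (0.054) and after quantile normalization (0.78, 0.242). A second, less bright probe set of SLC40A1 read -0.34 and -0.13 on the controls, 0.13 with siRNA-1 and 0.51 with siRNA-2, so the direction was shared and the gap between the siRNAs was narrower. With siRNA-2, then, the transcripts of hepcidin and of its target moved in opposite directions on the same array.

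The receptors for transferrin, the plasma carrier of iron, moved in opposite directions with siRNA-2. TFR2, the iron-sensing receptor of hepatocytes, read -0.66 and -0.91 on the controls, 0.66 with siRNA-1 and 1.16 with siRNA-2. Both knockdown arrays lay far above both controls, with the widest gap between the groups among the 9 genes. The knockdown difference was 1.69 ± 0.22 (SE, n = 2 arrays per group), 3.23-fold, and did not pass over all genes (limma adjusted p = 0.163; 0.0196 after quantile normalization). With the mean of its 3 probe sets it was 1.01 (limma adjusted p = 0.13). With siRNA-2 alone TFR2 was 1.94 ± 0.14 higher (limma adjusted p = 0.0176), or 1.11 with the mean of the probe sets (0.0129) and 1.72 after quantile normalization (0.0807), and with siRNA-1 1.44 ± 0.14 (limma adjusted p = 0.0924, or 0.0328 once array medians were subtracted). The siRNAs were not told apart for TFR2 (0.50 ± 0.17, limma adjusted p = 0.157). A second probe set that was not dim gave 1.16 for siRNA-1 and 1.31 for siRNA-2, and the third, a dim one, gave 0.10 and 0.09.

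TFRC, the receptor that takes up transferrin-bound iron in dividing cells, was lower with siRNA-2. The probe set used for the gene read 0.07 and 0.06 on the controls, -0.06 with siRNA-1 and -0.43 with siRNA-2. Both knockdown arrays were thus below both controls, the siRNA-2 array by more. The difference was -0.50 ± 0.07 with siRNA-2 (limma adjusted p = 0.0316) and -0.13 ± 0.07 with siRNA-1 (limma adjusted p = 0.322). The difference between the siRNAs was -0.37 ± 0.08 and did not pass (limma adjusted p = 0.0857). Of the 5 TFRC probe sets, 4 lay below both controls on both knockdown arrays, and the fifth was dim. A further pair of them gave larger differences, -0.42 and -0.73 for siRNA-1 against -1.10 and -1.21 for siRNA-2, so the size depends on the probe set.

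SLC11A2, which encodes the iron importer DMT1, was higher with siRNA-2. It read -0.18 and -0.25 on the controls, 0.18 for siRNA-1 and 0.31 for siRNA-2. The knockdown difference was 0.46 ± 0.11 (SE, n = 2 arrays per group; limma adjusted p = 0.248). With siRNA-2 it was 0.53 ± 0.07 (limma adjusted p = 0.0332) and with siRNA-1 0.40 ± 0.07 (limma adjusted p = 0.116), and the difference between them did not pass (0.13 ± 0.08, limma adjusted p = 0.379). Of its 5 probe sets, 4 lay above both controls with both siRNAs, with knockdown differences from 0.16 to 0.54. The fifth, a dim one, read -0.01.

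**Figure D2:**
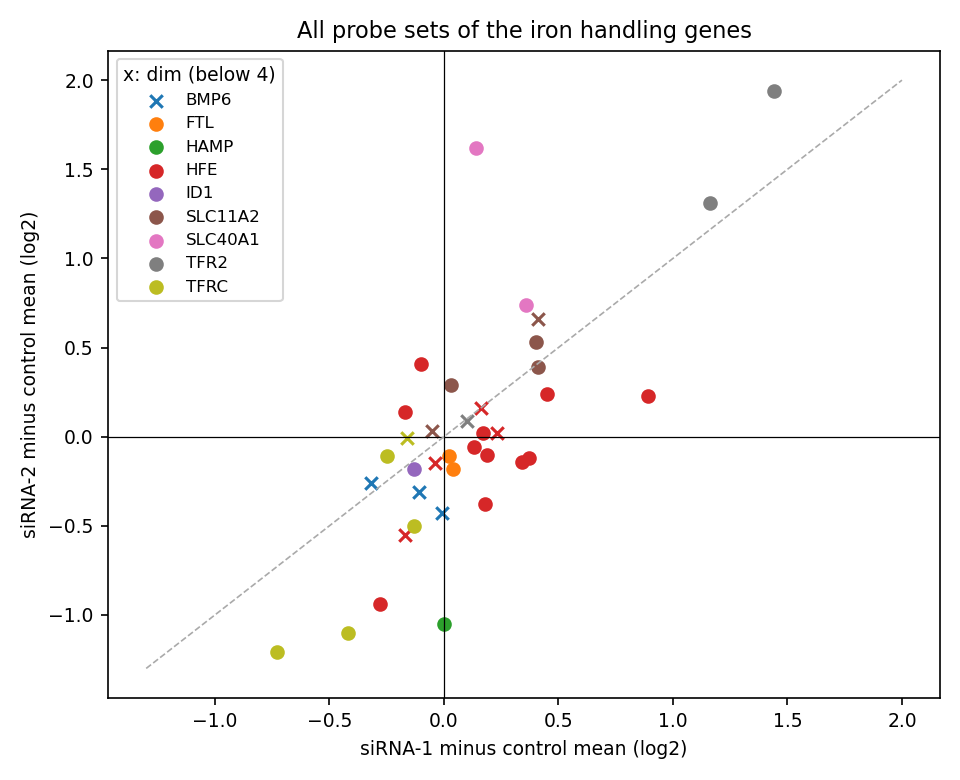
Difference from the control mean with siRNA-1 (x axis, log2) and with siRNA-2 (y axis, log2) for all 37 probe sets of the 9 genes; crosses are dim probe sets and the dashed line marks equal differences. Probe sets of TFR2, SLC40A1 and SLC11A2 that are not dim lie upper right, TFRC lower left and HAMP on the vertical axis at -1.05. The 15 HFE probe sets lie on both sides of 0, from -0.28 to 0.89 with siRNA-1 and from -0.94 to 0.41 with siRNA-2.

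Ferritin light chain passed in none of the 4 limma comparisons. FTL, which forms the iron storage shell with FTH1, read -0.01 and 0.01 on the controls, 0.02 for siRNA-1 and -0.11 for siRNA-2, and its second probe set 0.00, 0.00, 0.04 and -0.18. The siRNA-1 values lay just above the controls and the siRNA-2 values below them, so the groups overlap. The difference with siRNA-2 was -0.11 ± 0.07 (limma adjusted p = 0.316). Both probe sets are of the _x_at class, which can also bind transcripts of similar sequence, so the reading for FTL is uncertain.

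HFE, the membrane protein that is mutated in the common form of haemochromatosis, could not be read as 1 value. The probe set chosen by brightness read -0.12 and -0.11 on the controls, 0.77 with siRNA-1 and 0.11 with siRNA-2. On it the siRNA-1 array was the high one: 0.89 ± 0.07 against 0.23 ± 0.07 with siRNA-2, a difference between the siRNAs of -0.66 ± 0.08 (limma adjusted p = 0.0487). Across its 15 probe sets the knockdown difference ran from -0.61 to 0.56, with 3 above both controls on both knockdown arrays, 2 below and 10 overlapping. With the mean of all 15 the difference with siRNA-2 was -0.08 and that between the siRNAs -0.24 (adjusted p = 0.19). Without probe sets that carry a letter suffix it was -0.14 (0.506), and with robust moderation the same -0.66 missed the threshold (0.053).

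Of the BMP input to hepcidin, BMP6, the ligand that rises with liver iron, was read by 3 dim probe sets. The one used read -0.04 and 0.12 on the controls, 0.04 with siRNA-1 and -0.39 with siRNA-2, so siRNA-1 lay between the controls and siRNA-2 below them. The difference with siRNA-2 was -0.43 ± 0.10 and did not pass (limma adjusted p = 0.0771); with the mean of the 3 it was -0.33 and passed (0.0433). ID1, a helix-loop-helix inhibitor and a direct target of BMP signalling, read 0.05 and 0.11 on the controls, -0.05 with siRNA-1 and -0.10 with siRNA-2. Both knockdown arrays lay below both controls, but the knockdown difference of -0.15 ± 0.10 did not pass (limma adjusted p = 0.532).

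Values of 5 other genes of the BMP response are given as a description, since they were picked from the list by their role after values were known. ID3, a relative of ID1, was lower with siRNA-2 (-0.69, limma adjusted p = 0.0237; -0.11 with siRNA-1). ATOH8, a transcription factor gene that BMP induces in liver, gave -0.47 with siRNA-2 (limma adjusted p = 0.0554) and 0.05 with siRNA-1, and its other probe sets -0.58 and -0.71 with siRNA-2. SMAD7, the inhibitory SMAD of the same feedback, was higher with siRNA-2 (0.58, limma adjusted p = 0.026; -0.03 with siRNA-1). ID2 and SMAD6 gave -0.11 and -0.15 with siRNA-2 and -0.25 and -0.45 with siRNA-1, and none of these passed.

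**Figure D3:**
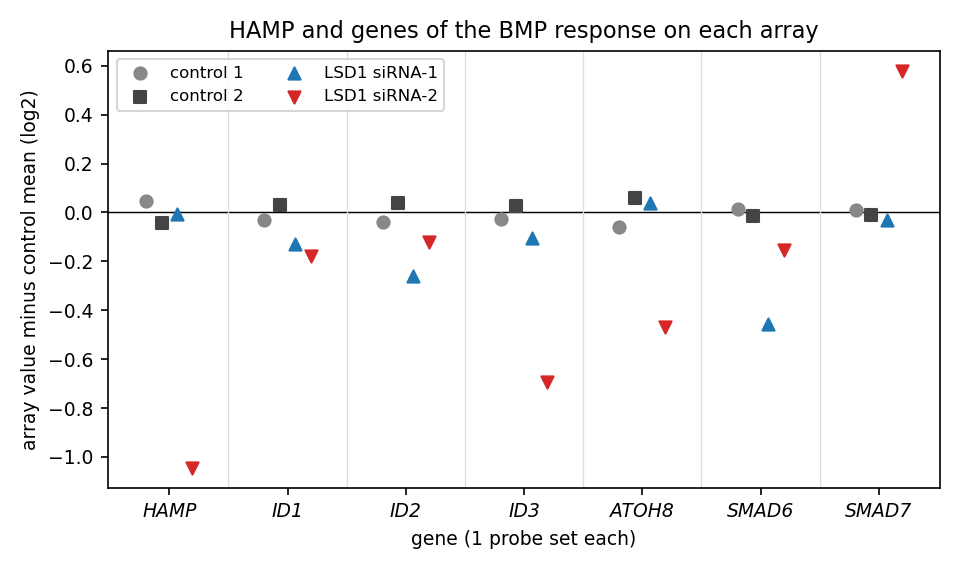
Value on each array minus the control mean (log2) for HAMP, ID1 and 5 further genes of the BMP response, 1 probe set each. With siRNA-2, HAMP, ID3 and ATOH8 lie at -1.05, -0.69 and -0.47, while SMAD7 lies at 0.58.

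The wider list of BMP and SMAD control held 22 measured genes of 23, with a median difference of -0.07 on knockdown; 0 passed (limma), 4 lay above and 9 below both controls on both knockdown arrays. With siRNA-2, 5 were called higher (ACVR1, ACVR2A, HJV, NEO1 and SMAD7) and 3 lower (SMAD4, SMAD9 and ID3). Over all genes 13.6% were called higher and 10.3% lower with siRNA-2, and 23.7% lay above and 25.4% below both controls; these shares are the background for this list and the 5 that follow. The list's median depended on the probe sets, with 0.01 without letter suffixes and -0.13 without dim genes. HJV, hemojuvelin, the BMP co-receptor needed for hepcidin expression, had the largest knockdown difference of the list, on a dim probe set. It read -0.39 and -0.52 on the controls, 1.11 with siRNA-1 and 0.39 with siRNA-2. Both knockdown arrays were clearly higher, by 1.21 ± 0.27 on average (SE, n = 2 arrays per group; limma adjusted p = 0.235). SMAD4, the shared partner of the receptor-activated SMADs, gave -1.15 for siRNA-2 and -0.06 for siRNA-1; a second probe set that was not dim gave -0.85 and 0.05, and 3 dim ones lay between -0.31 and 0.08 with siRNA-2. SMAD1, a SMAD that BMP receptors activate, gave 0.34 ± 0.10 on the probe set used and 0.02 on another that was not dim. SMAD9, of the same group, gave -0.44 ± 0.10, and FURIN, a protease that cleaves hemojuvelin and prohepcidin, -0.36 ± 0.11 on knockdown.

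On the inflammatory side, 11 of 13 genes of the IL6 route and liver factors were measured, with a median difference of -0.03; 0 passed on knockdown (limma), 5 lay above and 4 below both controls on both knockdown arrays. With siRNA-2, IL6ST and CREB3L3 were called higher (2 of 11, background 13.6%) and IL6R, JAK2, EGFR and INHBB lower (4 of 11, background 10.3%). IL6R, the ligand-binding chain of the IL6 receptor, read 0.16 and 0.35 on the controls, -0.16 with siRNA-1 and -1.76 with siRNA-2, with the siRNA-2 array far below the others. That is a difference of -2.02 with siRNA-2, 4.05-fold lower (limma adjusted p = 0.0156), and -0.42 with siRNA-1; the siRNAs differed (-1.60, limma adjusted p = 0.0425). IL6ST, the signalling chain gp130, gave 0.61 for siRNA-1 and 0.81 for siRNA-2, and JAK2, a kinase bound to such receptors, -0.83 and -0.72. JAK1 gave 0.34 on the probe set used, but 0.15 and -0.13 on others that were not dim. EGFR, which also feeds into hepcidin control in liver, gave -0.71 on knockdown. INHBB was read by a dim probe set, and CREB3L3 by a probe set without a brightness class. Thus the receptor chains of the same cytokine went opposite ways with siRNA-2 on the probe sets used. Other IL6ST probe sets that were not dim ran from -0.17 to 0.58 with siRNA-2.

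Genes of iron uptake, export and trafficking had a median difference of -0.08 over 19 of 20 genes; 0 passed on knockdown (limma), 6 lay above and 5 below both controls. With siRNA-2, TF and SLC39A14 were called higher and MCOLN1 and RAB12 lower. These counts, 2 of 19 in each direction, are near the 13.6% and 10.3% of all genes. TF, the gene of transferrin, read -0.03 and -0.11 on the controls, 0.03 for siRNA-1 and 0.54 for siRNA-2, and all 4 of its probe sets lay above both controls. SLC39A14, a transporter of iron not bound to transferrin, gave 0.53 ± 0.14 on knockdown on the probe set used. Another SLC39A14 probe set that was not dim gave 0.17, and a dim one -0.27. SLC25A37, the mitochondrial iron importer mitoferrin-1, gave -0.35 ± 0.11. RAB12, a small GTPase that directs the transferrin receptor to degradation, gave -0.66 ± 0.15 on the probe set used, but 0.01 and -0.05 on its other probe sets. MCOLN1, a lysosomal channel that releases iron, gave -0.46 ± 0.10.

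Of the iron regulatory proteins and their targets 8 of 10 were measured, with a median of 0.07 (-0.01 with the mean of probe sets, -0.08 without letter suffixes); 0 passed on knockdown (limma), 2 lay above and 2 below. FBXL5, the iron-sensing ubiquitin ligase subunit that degrades iron regulatory protein 2, was called higher with siRNA-2 (0.55, and 0.21 with siRNA-1), and EPAS1, the gene of HIF-2alpha, lower (-0.39, and -0.17 with siRNA-1). Another FBXL5 probe set that was not dim gave 0.37 with siRNA-2 and -0.10 with siRNA-1, and overlapped the controls. ACO1, which encodes iron regulatory protein 1, gave 0.05 on knockdown. CDC42BPA, whose mRNA carries an iron-responsive element, gave -0.18, and ALAS2, the erythroid haem synthesis enzyme, -0.13.

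**Figure D4:**
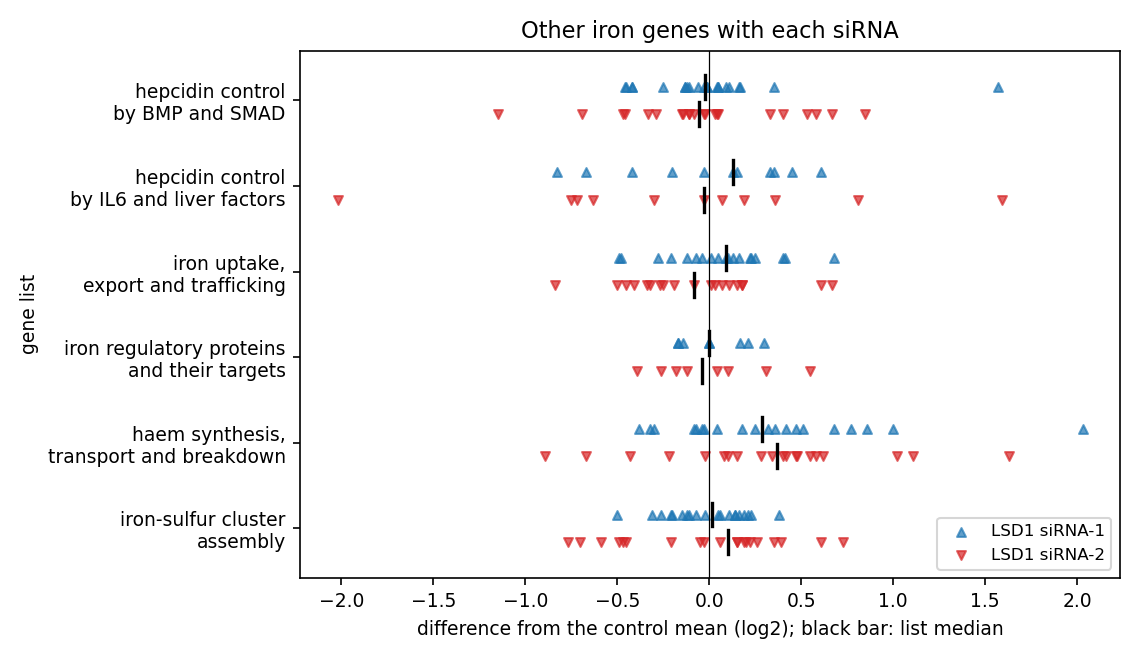
Difference from the control mean (log2, x axis) of each gene of 6 further iron lists (y axis) with siRNA-1 and siRNA-2; black bars are list medians. The haem list has medians of 0.29 and 0.37, and the other lists lie between -0.08 and 0.13.

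Among the 6 iron lists, the haem list had the most genes above the controls. Of 20 measured genes of 23, 12 lay above and 3 below both controls with either siRNA, and the median was 0.36 on knockdown (0.29 with siRNA-1, 0.37 with siRNA-2), or 0.21 with the mean of probe sets. On knockdown 0 passed (limma), and with siRNA-2 8 were called higher and 3 lower (ALAS1, UROD and HMOX2), where 13.6% and 10.3% of all genes were called and 23.7% and 25.4% lay above and below. The list holds HPX and HP, plasma proteins of the hepatocyte, and hepatocyte markers moved with it (8 of 8 above both controls, median 0.42); their part in the haem values was not tested. HPX, the plasma haem scavenger hemopexin, gave 1.83 ± 0.19 on knockdown. HMOX1, haem oxygenase 1, which releases iron from haem, read -0.43 and -0.44 on the controls, 0.43 with siRNA-1 and 0.59 with siRNA-2, a wide gap for both siRNAs (0.94 ± 0.11). The constitutive form HMOX2 was lower with siRNA-2 (-0.89, and -0.30 with siRNA-1). CPOX, an enzyme of haem synthesis, gave 0.63 ± 0.11 and ABCG2, a porphyrin exporter, 0.69 ± 0.14. ALAS1, the rate-limiting enzyme of haem synthesis in liver, went apart with the siRNAs: 0.32 with siRNA-1 and -0.67 with siRNA-2 (difference between them -0.99, limma adjusted p = 0.0425). SLC48A1, which moves haem out of endosomes, gave 0.04 and 1.11 (difference 1.08, limma adjusted p = 0.0425).

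Iron-sulfur cluster assembly, a main use of mitochondrial iron, had a median of 0.02 over 20 of 23 genes; 0 passed on knockdown (limma), 6 lay above and 5 below both controls. With siRNA-2, 3 were called higher (ISCU, HSCB and ISCA2) and 6 lower. The 3 higher calls of 20, and the 6 above and 5 below, are near the 13.6%, 23.7% and 25.4% of all genes; for lower calls the share of all genes was 10.3%. FDX1, a ferredoxin, gave -0.54 ± 0.18 on knockdown, ISCA1, an assembly factor, -0.47 ± 0.10, BOLA3 -0.39 ± 0.16 and the scaffold gene ISCU 0.30 ± 0.12. The probe set used for FDX1 gave -0.31 with siRNA-1 and -0.77 with siRNA-2. Other FDX1 probe sets, also not dim, gave -0.14 and 0.07 with siRNA-1 and -1.87 and -1.32 with siRNA-2.

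Hepatocyte markers were all in the brightest class (8 of 8 measured), and all 8 lay above both controls on both knockdown arrays, with a median difference of 0.42 (23.7% of all genes lay above); 4 of 8 were called higher with siRNA-2, where 13.6% of all genes were. HAMP, also a hepatocyte product, was lower with siRNA-2 on an array where ALB (1.56) and TTR (0.84) read highest among these markers. The other hepatocyte markers ran from 0.04 (APOB) to 0.61 (TF) with siRNA-2. Levels of other cell types cannot be summed because the values are centred. Of the macrophage markers PTPRC, CSF1R and MARCO were dim, CD163 was not, and CD14 and LYZ were in the brightest class. Among endothelial markers CDH5, VWF, STAB2 and KDR were dim, while PECAM1 and LYVE1 were not. Only LUM was dim among the stellate cell and fibroblast markers, and DCN was in the brightest class. The enterocyte markers ALPI and SI were dim, and VIL1 was in the brightest class. The 3 erythroid markers measured were not in the brightest class. With siRNA-2 the macrophage markers CD14 (1.71) and CD163 (0.60) and the stellate cell and fibroblast markers COL1A1 (2.65) and PDGFRB (0.63) were called higher, and the endothelial markers LYVE1 (-1.60) and PECAM1 (-0.78) lower. These are 2 of 6 markers in each list; the other macrophage markers lay between -0.22 and 0.00, the other stellate cell and fibroblast markers between -0.28 and 0.06, and the other endothelial markers between -0.18 and 0.09. PDGFRB read -1.18 with siRNA-1. All arrays carried RNA of the HepG2 line, so these markers do not measure the share of other cell types. Their part in the iron results was not tested.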

How the data were processed

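RNA from HepG2 cells was measured on 4 Affymetrix arrays, 2 per group. The deposited values were made by the authors with RMA, per the submitters' processing notes, and are taken as log2; the RMA version and log base were not stated. Each of 54675 probe sets has a median of 0 over the 4 arrays, within 5.0e-07. Of these, 41097 name 1 gene, 1801 several and 11777 none here; symbols were updated by gene identifier. Each gene used 1 probe set: brightest class, then no letter suffix, then identifier; probe sets at 0 on all arrays came last. The class came from the step of single-precision numbers, which leaves 1.1% without one.

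Genes were compared with limma 3.58.1 (R 4.3.3; two-sided, Benjamini-Hochberg over all 19775 genes, threshold 0.05), 2 arrays against 2, and in a model with 3 groups for single siRNAs, whose spread comes from the controls alone. Arrays give no counts or depth, and their number limits the precision. Permuting 4 arrays exactly has too few arrangements to reach the threshold, so no such p is given. Fits were run on simulated data in which both knockdown arrays had the same added change and the spread of the controls. The wider spread of the siRNA-2 array was not simulated.

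The genes, lists and tests were chosen with earlier results of these data known. From each list the 4 genes with the smallest p, the one with the largest difference and small groups of calls are named. Alternatives changed probe set choice, filter, moderation, normalization, the replicate block and the arrays included.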

Additional observations from a re-analysis of the deposited data

Results flagged for a closer look

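The siRNAs differed in the limma test of that difference, adjusted over all genes, for 3 iron handling genes: HAMP (siRNA-2 minus siRNA-1, -1.05), SLC40A1 (1.48) and HFE (-0.66). In the wider iron lists the same test picked out SMAD4 (-1.08), IL6R (-1.60), ALAS1 (-0.99), SLC48A1 (1.08), ISCA2 (0.84) and CIAO1 (-0.84). These are 6 of 100 measured list genes, 6.0%, where 6.96% of all genes were called, so the count is no higher than the background. For ALAS1, ISCA2 and CIAO1 the siRNAs also lay on opposite sides of the controls, although another CIAO1 probe set was lower with both (-0.28 and -0.62). These tests rest on the spread of the 2 control arrays. The calls for HAMP, SLC40A1 and HFE were lost with every probe set tested by itself and after quantile normalization. For HFE the difference was -0.24 with the mean of its 15 probe sets and -0.14 without letter suffixes.

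Hybridization spike-ins, which belong to no gene comparison, were 1.36 higher on the knockdown arrays than on the controls. Over 18 probe sets the control arrays had medians of -0.71 and -0.64, the knockdown arrays 0.64 and 0.69. Poly-A spike-ins, added earlier in the protocol, differed by 0.27 in the same direction.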

How the results depend on the processing

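The differences of the 9 iron genes changed sign in the 4 cases given below, and that of HAMP with siRNA-1, 0.00, ran from -0.05 to 0.04. On knockdown 0 passed, 1 (TFR2) after quantile normalization, and 0 to 5 when each array was left out in turn; the 5 came without the siRNA-1 array. With siRNA-1, 0 passed, 1 (HFE) without dim genes and 2 (TFR2 and HFE) with array medians subtracted. With siRNA-2 the count of 5 became 0 after quantile normalization. Between the siRNAs the count of 3 became 0 with every probe set tested by itself and 0 after quantile normalization. With siRNA-2, 23.9% of all genes were called (4727 of 19775), against 19.3% without suffixed probe sets (3245 of 16788), 39.9% without dim genes (5760 of 14434), 19.4% of probe sets tested by themselves (7953 of 41091) and 0 after quantile normalization. Those between the siRNAs numbered 1376, in a range from 0 to 3361, and those with siRNA-1 0 to 722. On knockdown 1 gene was called, 393 after quantile normalization. Reversed values were HFE with siRNA-2 (-0.08 with the mean of probe sets), TFR2 between the siRNAs (-0.14 after quantile normalization), FTL on knockdown (-0.11 to 0.02 with each array left out) and BMP6 with siRNA-1 (-0.08 to 0.07 without each control, a value with no test, as no residual degrees of freedom remain). Quantile normalization gave the centred values the same spread on every array, also on the wider siRNA-2 array. The cause of the changes given here was not tested. The count of 6 genes beyond both controls ran from 4 to 9; the 9 came without the siRNA-1 array, when 84.7% of all genes lay beyond, against 49.1% with all arrays. Of 54 list medians under alternatives, 13 moved by more than the SD between arrays of a group. Same-numbered arrays share only a number (correlation of their deviations 0.036 over genes), and with the replicate block 0 iron genes and 0 of all genes passed on knockdown.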
